A study of Arabidopsis thaliana with 2 samples.

Results

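The respiratory burst oxidase homologues (RBOHs) are the NADPH oxidases of plants, encoded in Arabidopsis thaliana by the 10 genes RBOHA to RBOHJ. Every gene probe whose locus was one of these 10 was taken, which gave 14 probes for 10 of the 26375 loci with a probe on the array. An RBOH sits in the plasma membrane and passes electrons from cytosolic NADPH to oxygen outside the cell. The superoxide made there is turned into hydrogen peroxide, which takes part in defence, stomatal closure, wall cross-linking and tip growth. Activity is controlled largely after translation, by calcium binding to EF hands near the N terminus and by phosphorylation, so that a transcript level is not a measure of oxidase activity.

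Young leaves of 35S:NROB #2 plants were compared with young leaves of wild-type plants, both Columbia-0 and both at day 30 of growth. 35S:NROB #2 carries NROB behind the 35S promoter, a strong viral promoter active in most tissues, and the number marks 1 transgenic line. The sources used here do not say what NROB stands for or whether a sample was 1 plant or a pool. RNA of both genotypes shared each of 2 Agilent arrays, called biological replicates 1 and 2, with 35S:NROB #2 in Cy3 and wild type in Cy5 on both. A dye effect and a genotype effect therefore cannot be told apart, and the spread given is that between these 2 arrays. No probe (0) carried NROB in its name or description, so the transgene was not checked. In whole leaves, fewer cells of a type and less RNA per cell cannot be told apart. The leaf label was checked against marker lists. All 6 mesophyll markers were flagged P on both arrays, with summed intensities of 961273 and 893876 in 35S:NROB #2 and 945789 and 994737 in wild type. None of 5 pollen markers and none of 6 root hair markers were flagged P on both arrays. The summed pollen markers stood at 57.7 and 105 in 35S:NROB #2 and 49.7 and 114 in wild type, and the root hair markers at 58.9 and 100.2 in 35S:NROB #2 and 43.5 and 46.0 in wild type. Of 4 root endodermis markers 1 was flagged P on both arrays, with a mean log2 ratio of -0.90 that limma did not call. Their summed intensities were 101 and 90.3 in 35S:NROB #2 and 143 and 167 in wild type.

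Each spot carries a flag, and its letters were read from the values, since no source used here explains them. Spots flagged A were dim in at least 1 channel, and spots flagged P in neither. The dimmer channel of gene spots flagged A reached at most 50.1 on array 1 and 66.0 on array 2. In 35S:NROB #2 alone, spots flagged A reached 11522 and 13457.9. The lowest intensities of gene spots flagged P were 35.1 and 51.0 in 35S:NROB #2 and 28 and 25.4 in wild type (arrays 1 and 2). These 4 values serve below as a floor. Spots flagged A had median intensities of 7.89 and 9.25 in 35S:NROB #2 and 7.78 and 8.39 in wild type. Each log2 ratio divides 35S:NROB #2 by wild type, and means are over both arrays with their SD. Where the means of further probes of a gene are given, they were taken whatever the flag. Genes with a probe flagged P on both arrays were tested together with limma, and a gene was called at a Benjamini-Hochberg adjusted p under 0.05.

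Only RBOHD and RBOHF, the oxidases best known from leaf immunity and guard cells, gave signal clear of the floor. On both arrays their 3 probes had the flag P, and the 11 probes of the other 8 genes had the flag A. Of all loci with a probe, 64.3% had one flagged P on both arrays, against 2 of the 10 RBOH genes. Neither RBOHD nor RBOHF was called (0 of 2), where limma called 0.248% of the 16956 genes tested, 0.236% as higher and 0.0118% as lower. Neither passed a fold rule that took the study's mean change over 2-fold and asked in addition for the same sign on both arrays. Of the genes tested, 4.82% met this rule as higher and 2.84% as lower.

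**Figure D1:**
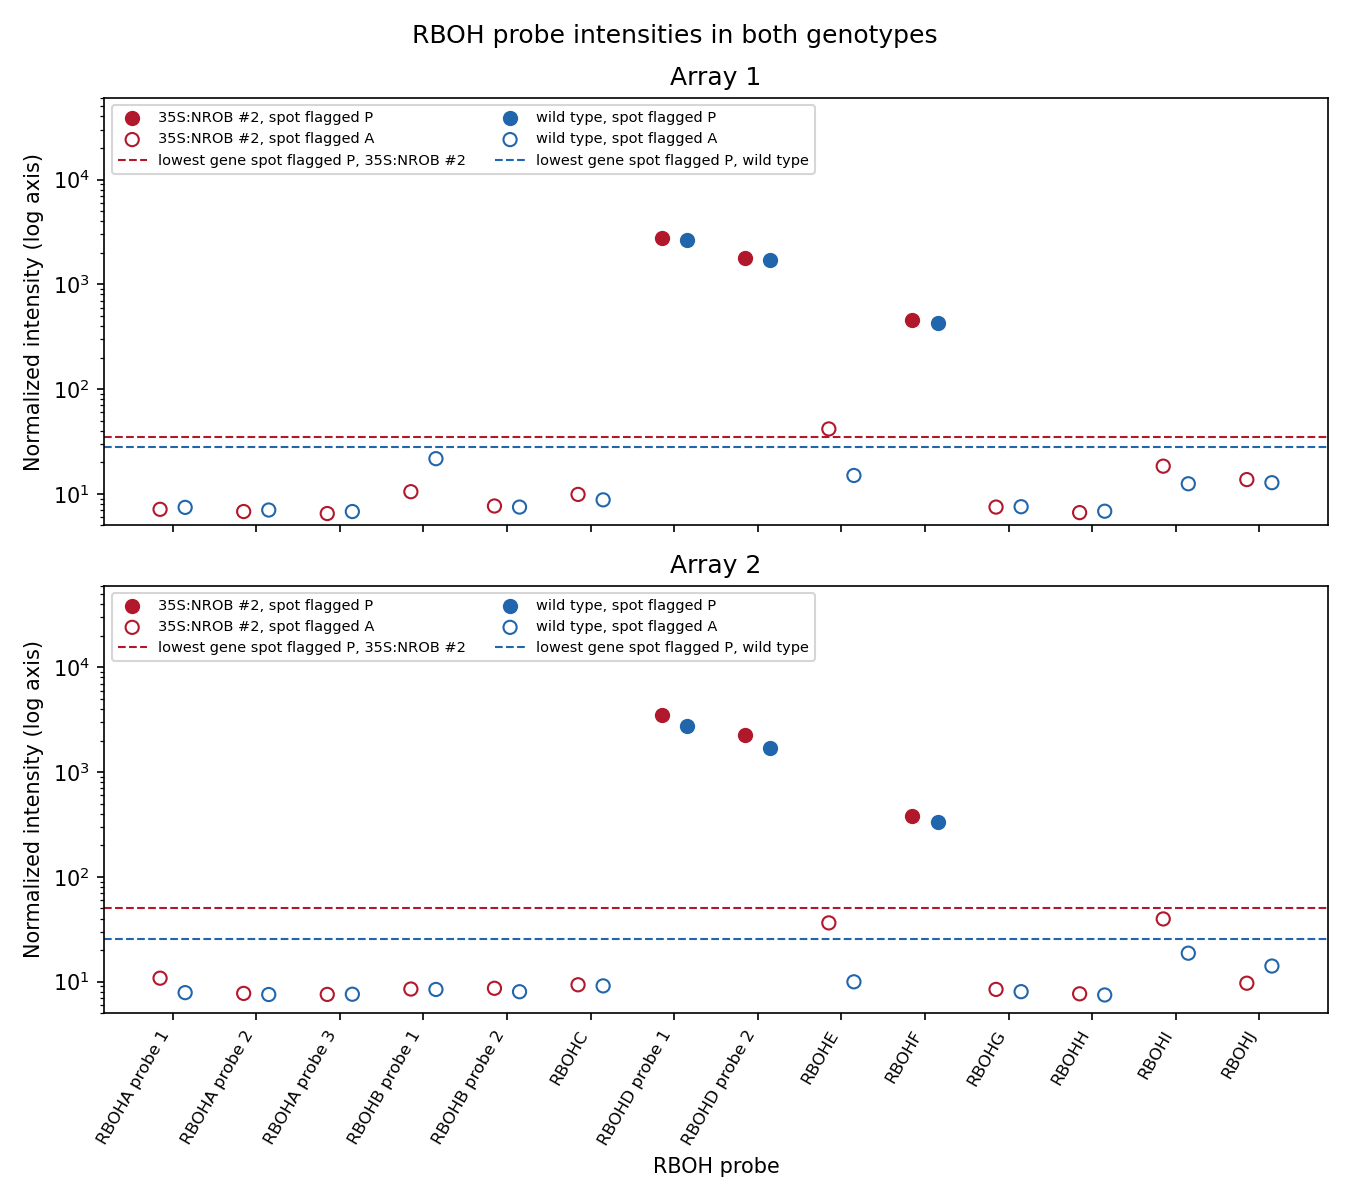
Normalized intensity (log axis) of the 14 RBOH probes on array 1 (top) and array 2 (bottom), with 35S:NROB #2 left of wild type at each probe; filled points are spots flagged P, open points spots flagged A, and dashed lines the lowest gene spot flagged P in each channel. The RBOHD and RBOHF probes lie between 332 and 3515. The others lie under the line of their own channel except for RBOHE in 35S:NROB #2 on array 1, at 41.7.

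RBOHD (AT5G47910, chromosome 5) makes most of the burst that follows recognition of microbes at the leaf cell surface. Its brighter probe read 2757 and 3515 in 35S:NROB #2 and 2630.4 and 2743 in wild type. Its other probe read 1784 and 2259.7 in 35S:NROB #2 and 1725 and 1695 in wild type. For both probes the 35S:NROB #2 value was the higher one within each array, by little on array 1 and by more on array 2. The log2 ratios were 0.07 and 0.36 for the brighter probe and 0.05 and 0.42 for the other, so the probes differed from each other by less than the arrays did. The mean of the brighter probe was 0.21 ± 0.20 (n = 2), a 1.16-fold difference that limma did not call (adjusted p = 0.331). Its 95% interval ran from -0.17 to 0.60 on the log2 scale, or from 0.888-fold to 1.51-fold. That interval leaves out a 2-fold change of the measured ratio, in which dye and genotype are not separated. A larger mean change in either direction was found for 56.9% of the genes tested.

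RBOHF (AT1G64060, chromosome 1) acts with RBOHD in defence and in the abscisic acid response of guard cells, and in roots it supplies the peroxide for Casparian strip lignin. Its probe read 460.4 and 384 in 35S:NROB #2 and 427 and 332 in wild type. The 35S:NROB #2 value was the higher one within each array, but the ranges of the genotypes overlapped across arrays. The log2 ratio was 0.11 on array 1 and 0.21 on array 2, with a mean of 0.16 ± 0.07 (n = 2), or 1.12-fold. Limma did not call it (adjusted p = 0.377), with a 95% interval from -0.17 to 0.49, or from 0.891-fold to 1.40-fold. A larger mean change was found for 66.0% of the genes tested. A positive sign on both arrays, as for RBOHD and RBOHF, was shared by 37.8% of the genes tested, and a negative one by 43.3%. The order of RBOHD and RBOHF was not settled, since RBOHD minus RBOHF was -0.04 on array 1 and 0.15 on array 2. All 5 guard cell markers were flagged P on both arrays. Their summed intensities were 10955 and 11807 in 35S:NROB #2 and 11079.8 and 14028 in wild type, and their mean log2 ratios ran from -1.32 to 0.15 with 0 called. The part of guard cells in the RBOHD and RBOHF values was not tested.

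**Figure D2:**
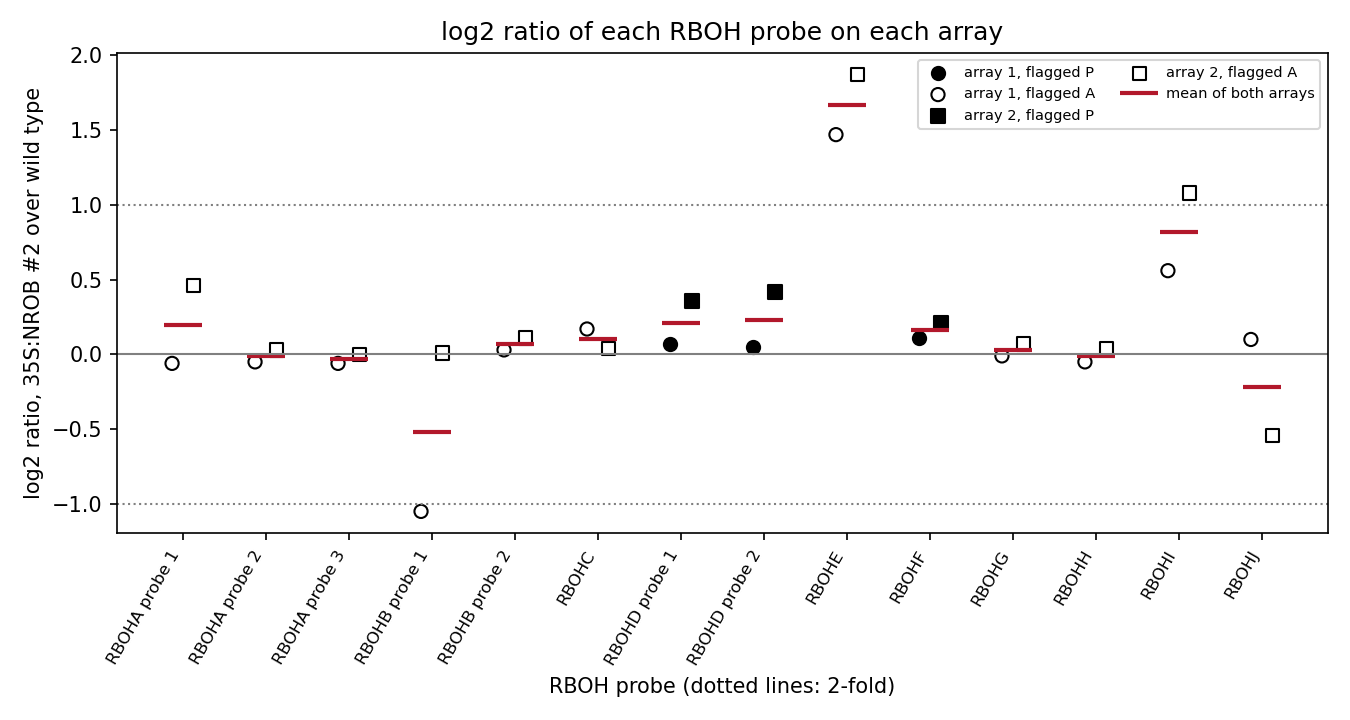
Log2 ratio (35S:NROB #2 over wild type) of each RBOH probe on array 1 (circles) and array 2 (squares), filled where the spot was flagged P and open where flagged A, with a red bar at the mean. The 3 filled probes lie between 0.05 and 0.42, inside the dotted 2-fold lines, and RBOHE lies above the upper line on both arrays, at 1.47 and 1.87.

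RBOHE (AT1G19230, chromosome 1), known from the tapetum of anthers, had the largest difference of the family, in spots flagged A. Its probe read 41.7 and 36.4 in 35S:NROB #2 and 15 and 9.97 in wild type. The 35S:NROB #2 intensity was brighter than 97.2% and 89.2% of all gene spots flagged A in that channel (arrays 1 and 2), and the wild-type intensity brighter than 78.8% and 64.1%. It lay above the floor on 1 of the 2 arrays in 35S:NROB #2 and on neither in wild type, so no fold is given. The listed log2 ratios were 1.47 and 1.87 (mean 1.67 ± 0.28, n = 2). Ratios above 1 on both arrays were found in 5.26% of the 16900 gene probes flagged A on both arrays. In a limma fit over all gene probes, whatever their flag, RBOHE was the 1 member called (adjusted p = 0.0319). That fit called 4.14% of its 26375 genes as higher, and 6.30% of those whose probe was flagged A on both arrays. When 50 was added to all intensities before the ratio, the mean log2 ratio of RBOHE was 0.51.

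RBOHI (AT4G11230, chromosome 4) was the other dim member with higher values in 35S:NROB #2 on both arrays beyond 0.5 on the log2 scale. Its probe read 18.4 and 39.7 in 35S:NROB #2 and 12.5 and 18.7 in wild type. All 4 values were under the floor and the ranges of the genotypes overlapped by a small margin. The listed log2 ratios were 0.56 and 1.08 (mean 0.82 ± 0.37, n = 2). It was not called in the limma fit over all gene probes (adjusted p = 0.0878), and with 50 added its mean was 0.26.

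The other 6 genes, with 9 probes, read from 6.50 to 13.7 in 35S:NROB #2 and from 6.79 to 21.7 in wild type, all under the floor. RBOHC (AT5G51060, chromosome 5), also called RHD2 and needed for root hair growth, read 9.89 and 9.34 in 35S:NROB #2 and 8.78 and 9.12 in wild type. RBOHH (AT5G60010, chromosome 5) and RBOHJ (AT3G45810, chromosome 3) act together in the growing pollen tube. RBOHH read 6.63 and 7.66 in 35S:NROB #2 and 6.84 and 7.47 in wild type, and RBOHJ read 13.7 and 9.67 in 35S:NROB #2 and 12.8 and 14.1 in wild type. These readings stand beside the root hair and pollen markers, which were not flagged P in leaves either. RBOHG (AT4G25090, chromosome 4) read 7.49 and 8.44 in 35S:NROB #2 and 7.55 and 8.03 in wild type. RBOHA (AT5G07390, chromosome 5) had 3 probes, between 6.50 and 10.8 in 35S:NROB #2 and between 6.79 and 7.86 in wild type. RBOHB (AT1G09090, chromosome 1), known from seed germination, had 2 probes whose ratios disagreed. The first read 10.5 and 8.51 in 35S:NROB #2 and 21.7 and 8.43 in wild type, a log2 ratio of -1.05 on array 1 that was absent on array 2 (0.01). The second read 7.67 and 8.65 in 35S:NROB #2 and 7.49 and 8.02 in wild type. At these intensities a difference between the genotypes was not detectable, which does not show that the transcripts are absent.

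The genes whose ratios lay nearest those of RBOHD were AT4G37660, annotated as a ribosomal protein L12 family member, RPAC43, an RNA polymerase I subunit, and RIN1, a TIP49a homologue. Nearest RBOHF were AT4G03020, a WD40 protein, AT5G58150, a receptor-like kinase, and RPD1. The distance was Euclidean over the log2 ratios of the 2 arrays and was at most 0.0087. Within a distance of 0.1 lay 474 genes for RBOHD and 966 for RBOHF, so 2 arrays single out no small set.

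Known regulators of RBOHs were taken as a list of 26 kinases, receptors, calcium sensors and G proteins. It also holds OXI1, which acts downstream of hydrogen peroxide. The list was not split by the sense of each member's effect, so its median and counts give no direction for RBOH activity. Of the 23 tested, 0 were called, and by the fold rule 1 was higher and 0 lower, with a median log2 ratio of 0.11 against -0.03 over all genes tested. On both arrays 14 were higher and 6 lower, where 37.8% of the genes tested were higher on both and 43.3% lower. BIK1, the receptor-like cytoplasmic kinase that phosphorylates RBOHD, read 1222 and 1978 in 35S:NROB #2 and 745 and 753 in wild type. Its log2 ratio of 1.05 ± 0.48 was the highest among the tested regulators and was not called (limma adjusted p = 0.0775). XLG2, an extra-large G protein of the receptor complex, read 2256 and 3127 in 35S:NROB #2 and 1353 and 1567 in wild type (log2 ratio 0.87 ± 0.18, limma adjusted p = 0.0638). For both genes the 35S:NROB #2 value was the higher one on each array. The calcium-dependent kinase CPK6 stood at 0.62 ± 0.20 (limma adjusted p = 0.0834). The mean of its other probe, which was not flagged P on both arrays, was -0.13. OST1, the abscisic acid-activated kinase that phosphorylates RBOHF, read 770.5 and 755 in 35S:NROB #2 and 1141 and 1335 in wild type. Its log2 ratio was -0.69 ± 0.18 (limma adjusted p = 0.0746), and the means of its 3 probes lay between -1.63 and -0.69. The probe at -1.63 was not flagged P on both arrays, and the mean of the probes so flagged was -0.79.

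Among the regulators outside the test, OXI1 and AT5G35580 lay above the floor in 1 genotype only. OXI1, a kinase induced by and acting downstream of hydrogen peroxide, read 155 and 287 in 35S:NROB #2 and 16.5 and 7.93 in wild type. Its spots were flagged A on both arrays, with wild type under the floor and 35S:NROB #2 above it. Set against the wild-type floor, OXI1 was 7.92-fold higher in 35S:NROB #2. AT5G35580, annotated as a serine/threonine kinase, read 49.0 and 74.3 in 35S:NROB #2 and 18.5 and 19.6 in wild type. Set against the wild-type floor, it was 2.26-fold higher in 35S:NROB #2. In the fit over all gene probes both were called (limma adjusted p = 0.0406 for OXI1 and 0.0352 for AT5G35580), as were 4.14% of its genes as higher and 6.30% of those flagged A on both arrays. These folds set the mean log2 intensity of the brighter genotype against the floor of the other, and carry no dye swap. They are not firm lower limits, since the dimmer channel of spots flagged A reached 50.1 and 66.0, above that floor.

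**Figure D3:**
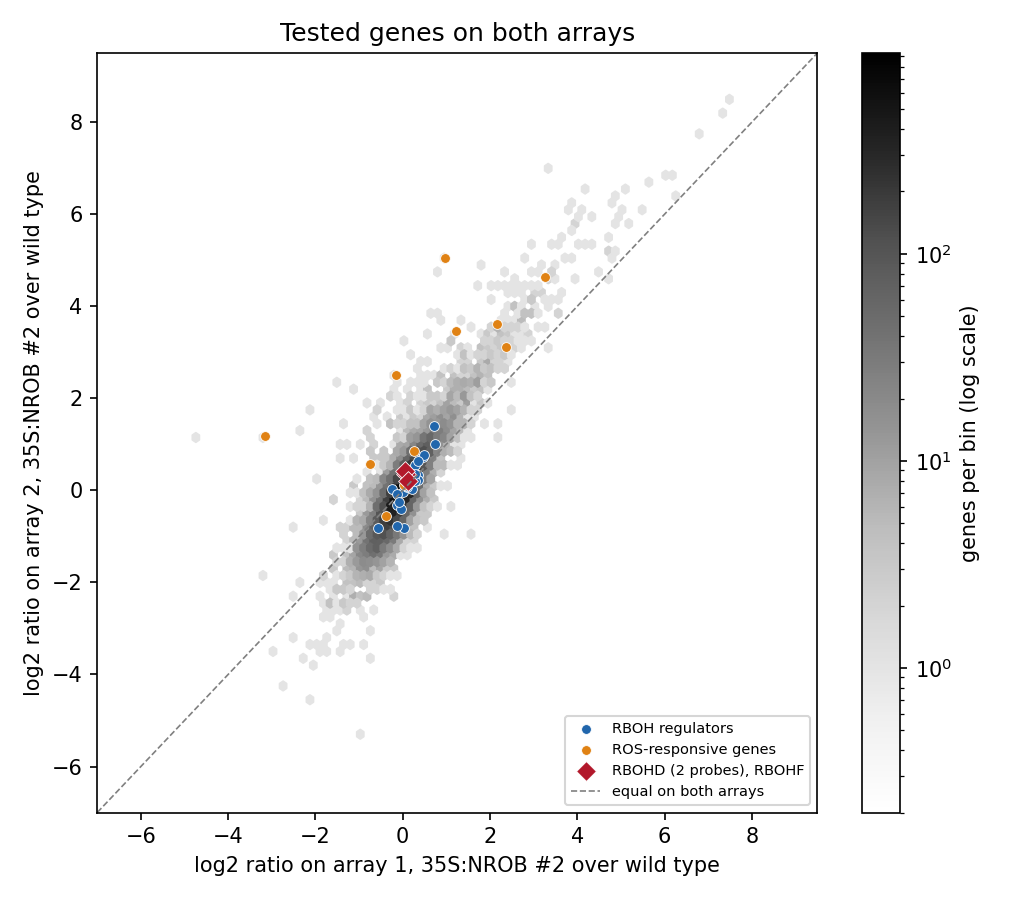
Log2 ratio (35S:NROB #2 over wild type) on array 1 (x axis) and array 2 (y axis) for the 16956 genes tested, as bins shaded by gene number, with RBOHD and RBOHF as red diamonds, the tested RBOH regulators in blue and the ROS-responsive genes in orange. The diamonds lie in the dense centre of the cloud, while ZAT12 (0.96 on array 1 and 5.04 on array 2) and HSFA2 (-3.16 and 1.17) lie far from the dashed line of equal ratios.

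The ferric reductase oxidases (FROs) share the membrane haem and flavin domains of RBOHs and reduce iron or copper rather than oxygen. Of 8 FRO genes 5 were tested and 0 were called, with a median log2 ratio of 0.00. FRO4 read 157 and 151 in 35S:NROB #2 and 279 and 285 in wild type (log2 ratio -0.87 ± 0.06, limma adjusted p = 0.0567). FRO3 read 2046 and 2736 in 35S:NROB #2 and 1438 and 1589 in wild type (0.65 ± 0.19, limma adjusted p = 0.0793). Each gene kept its direction on both arrays, and the directions of FRO4 and FRO3 were opposite. FRO6, of the leaf, and FRO8, of mitochondria, stood at 0.26 ± 0.06 and -0.17 ± 0.01. The other FRO6 probe had a mean of -0.04, and FRO6 stood at 0.11 with the mean of its probes and at 0.07 after quantile normalization. FRO2, the main iron reductase of the root surface, was outside the test. FRO2 read 32.2 and 29.6 in 35S:NROB #2 and 116 and 174 in wild type, in spots flagged A. Set against the 35S:NROB #2 floor, it was 3.35-fold lower in 35S:NROB #2, which again is not a firm limit. The fit over all gene probes called it as lower (limma adjusted p = 0.0324), as it did 1.67% of its genes.

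Enzymes that remove superoxide and peroxide lay on both sides of 0. Of 12 listed genes 11 were tested and 0 were called, with 4 higher and 6 lower on both arrays and a median log2 ratio of -0.10. CSD1, the cytosolic copper/zinc superoxide dismutase, read 30825 and 53284 in 35S:NROB #2 and 18599 and 27759 in wild type (0.83 ± 0.15, limma adjusted p = 0.0637). CSD3, the peroxisomal form, read 1682 and 1754 in 35S:NROB #2 and 2425 and 3219.9 in wild type (-0.70 ± 0.25, limma adjusted p = 0.0793). CAT3 stood at 0.70 ± 0.51, with the means of its 9 probes between 0.06 and 0.70, and CAT2, the catalase of photorespiration, at -0.51 ± 0.21. Among 6 apoplastic peroxidases, channels and sensors 0 were called, with a median of -0.26 and 1 higher by the fold rule. PRX34, a wall peroxidase that makes peroxide during defence, read 22036 and 39442 in 35S:NROB #2 and 12033 and 11891 in wild type (1.30 ± 0.61, limma adjusted p = 0.0752). GHR1, a receptor kinase that relays peroxide signals in guard cells, read 147 and 96.8 in 35S:NROB #2 and 209 and 269 in wild type (-0.99 ± 0.68, limma adjusted p = 0.109). Its other probe, which was not flagged P on both arrays, had a mean of 0.74. AT5G49760, a leucine-rich repeat kinase, stood at 0.51 ± 0.14, and the aquaporin PIP2;1 at -0.39 ± 0.48, with the means of its 6 probes between -0.92 and -0.39.

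**Figure D4:**
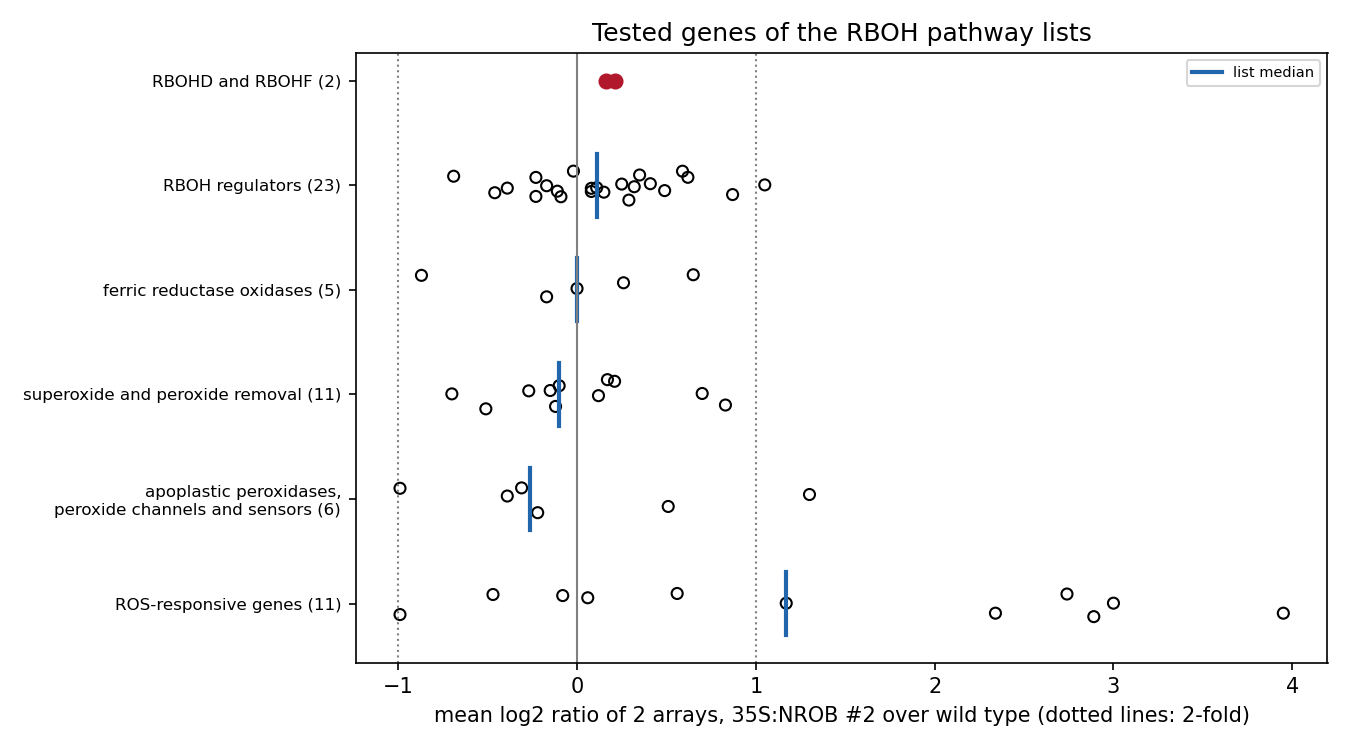
Mean log2 ratio (35S:NROB #2 over wild type) of RBOHD and RBOHF (red) and of each tested gene of the 5 pathway lists (open circles, with the number tested in brackets), with blue bars at the list medians and dotted lines at 2-fold. The ROS-responsive genes reach 3.95 with a median of 1.17, while RBOHD and RBOHF stand at 0.21 and 0.16.

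Genes known to respond to reactive oxygen (ROS) had the widest range, from -0.99 to 3.95. Of 12 listed 11 were tested and 0 were called, and the median was 1.17. By the fold rule 5 were higher and 0 lower, where 4.82% and 2.84% of the genes tested were. On both arrays 7 of the 11 were higher and 1 lower, where 37.8% and 43.3% of the genes tested were. This list, like the others, was chosen with earlier results of these data known. Its counts and median beside those of all genes are therefore a description and not a test. ZAT10 had a mean over 2-fold too, but its sign differed between arrays (-0.16 and 2.51). AT1G57630, a Toll/interleukin receptor domain protein, read 1744 and 2711 in 35S:NROB #2 and 181 and 109 in wild type (3.95 ± 0.97, limma adjusted p = 0.0516). TI1, annotated as a defensin-like protein, read 5803 and 12045 in 35S:NROB #2 and 1286 and 987 in wild type (2.89 ± 1.01, limma adjusted p = 0.0595). AT1G05340, a protein of unknown function, read 640.2 and 1260.1 in 35S:NROB #2 and 124 and 145 in wild type (2.74 ± 0.54, limma adjusted p = 0.0516). In these 3 genes the genotypes were far apart on both arrays. The zinc finger gene ZAT12 read 6543 and 9528 in 35S:NROB #2 and 3357 and 290.1 in wild type, so that its mean of 3.0 ± 2.88 rested on array 2 (limma adjusted p = 0.154). The same wild-type sample of array 1 stood above that of array 2 for ZAT10, with 7779 and 6067 in 35S:NROB #2 against 8668 and 1068 in wild type, and for the heat shock factor HSFA2, with 94.0 and 146 in 35S:NROB #2 against 838 and 64.7 in wild type. Array 1 wild type was also higher for AT1G19020 (1681 against 563), ERF6 (2535 against 722) and RRTF1 (194 against 8.38). RRTF1 was outside the test and flagged A on array 2. Array 1 wild type was higher by a smaller factor for HSF A4A, AT1G57630 and TI1, and lower for AOX1A, AT2G21640 and AT1G05340. The median of the list was 0.25 on array 1 and 2.51 on array 2. RBOHD did not share that spread in wild type, at 2630.4 and 2743. ROS-responsive transcripts are known to be induced by several sources of reactive oxygen and by other stresses, and whether RBOH activity bears on them was not tested.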

How the data were processed

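Agilent 2-colour arrays were hybridised with amplified, labelled total RNA, per the labels' protocols. The submitters' processing notes list Agilent Feature Extraction 8.5.1.1. Per the file headers, the authors deposited for every spot a flag and, for both dyes, a normalized linear intensity. They also deposited a log2 ratio, which runs as wild type over the transgenic line. How the values were normalized is not stated in these sources. The deposited log2 ratio equals that of the channels within 9.62e-07, and the series matrix holds the same values with the sign turned. Each gene probe (43603, of which 36688 had a locus) was matched by RefSeq accession, locus code or symbol, using the table of assembly TAIR10.1 for names. Genes took their brightest probe flagged P on both arrays (16956 genes, from 58.1% of gene probes). Limma 3.58.1 in R 4.3.3 fitted an intercept to both log2 ratios with eBayes (1 residual and 2.72 prior degrees of freedom), with Benjamini-Hochberg adjustment over all genes. The 95% intervals are limma's, for single genes. The fit was run on simulated data as a check of the code, and its recovery of changes near 2-fold is not given here. Python 3.11.15, pandas 2.3.3 and matplotlib 3.10.9 handled tables and plots. The number of arrays limits the precision.

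The members, the pathway and marker lists and the tests were chosen with earlier results of these data known. All 10 members were named with every probe. From each list up to 4 tested genes with the largest absolute mean log2 ratio were named. The 3 nearest genes of RBOHD and RBOHF were named too. OXI1, AT5G35580, FRO2, ZAT10, HSFA2, FSD1, PRX33, AT1G19020, ERF6, RRTF1, HSF A4A, AOX1A and AT2G21640 were named from the lists after their values were seen. Alternatives covered normalization, offset, flags, intensity, probes of a gene, channel pairing, the series matrix and each array left out. RBOH sequences were not used here.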

Additional observations from a re-analysis of the deposited data

Results flagged for a closer look

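RBOHE lay outside the test, since its spots were flagged A on both arrays, yet it read above wild type in 35S:NROB #2 on both, with a mean log2 ratio of 1.67 and ratios of 1.47 and 1.87. It is listed here because that signal appeared in spots the main comparison left out. The 35S:NROB #2 intensities of 41.7 and 36.4 stood beside a floor of 35.1 and 51.0, and 5.26% of gene probes flagged A on both arrays had ratios above 1 on both.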

How the results depend on the processing

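RBOHD kept a positive log2 ratio under the 10 alternatives that allow a test, from 0.20 to 0.24 (limma adjusted p from 0.291 to 0.684), and RBOHF under 9, from 0.14 to 0.25 (0.240 to 0.780). RBOHF lay in the lower quartile of intensity and has no value without it. With 1 array left out the values ran from 0.07 to 0.36 for RBOHD and from 0.11 to 0.21 for RBOHF, with no test. The count of RBOH members called was 0 except with all gene probes, where it was 1 (RBOHE). Over all genes tested the limma calls numbered 40 higher and 2 lower. They were 463 and 150 with median centring, 933 and 519 with loess, 499 and 221 with quantile normalization, and 516 and 209 with an offset of 50. They were 24 and 1 when a flag P on either array sufficed, 1091 and 441 with all gene probes, 235 and 86 without the lower quartile, and 462 and 148 with the mean of probes. Without the replicate block (channels unpaired) they were 1474 and 1469, and RBOHD and RBOHF were still not called. At an unadjusted p under 0.05 limma passed 5609 genes. Of the pathway lists' genes 0 were called, but 2 with median centring (AT1G57630 and AT1G05340), 6 with loess, 4 with quantile normalization, 4 with the offset, 7 with all gene probes, 1 without the lower quartile, 3 with the mean of probes and 16 with channels unpaired. The median of the FRO list, 0.00, became 0.13 without the lower quartile and -0.08 with all gene probes, and that of the apoplastic list, -0.26, became 0.10 without the lower quartile. The genes in the lists differ between these settings, while the ratios of the genes kept are the same. FRO4, GHR1 and PRX33 drop out without the lower quartile, and all gene probes bring in the FRO genes outside the test. By the fold rule 818 genes were higher and 482 lower. These counts were 1179 and 1035 without replicate 1, 579 and 217 without replicate 2, 1674 and 1123 with all gene probes, 466 and 244 without the lower quartile, and 694 and 309 with the offset.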

Other observations

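RBOHG lies next to FSD1 (AT4G25100), an iron superoxide dismutase gene, in the order of loci of the TAIR10.1 table. FSD1 read 41880.5 and 42528 in 35S:NROB #2 and 47117 and 44340.4 in wild type (log2 ratio -0.12 ± 0.08, not called by limma, with the mean of its other probe at -0.36), while the RBOHG spots were flagged A on both arrays.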
